A study of Homo sapiens with 10 samples.

Results

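The BCL2 family sets the threshold at which mitochondria commit a cell to apoptosis, and 10 of its genes were followed here through 5 groups of HCT116 cells. The members were taken by gene symbol and not by a cutoff on their values, though earlier results of these data were known. They were the pro-survival genes MCL1 and BCL2L1, the BCL2-like gene BCL2L12 and the effectors BAX and BAK1. The BH3-only genes were BCL2L11, BBC3, PMAIP1, BID and BAD. All 10 were found, among 15586 genes in the inhibitor table and among 17018 genes shared by both knockdown tables. Together they had 63 listed transcripts, of which 51 stood in all 3 tables. HCT116 is an established human colorectal carcinoma line, and its mRNA was sequenced in 10 libraries. EPZ cells were kept for 72 h in 10 µM EPZ-5676, which inhibits the histone methyltransferase DOT1L, and DMSO cells received DMSO. K56A cells carried a CDK9 knockdown and were reconstituted with a CDK9 whose lysine 56 is replaced by alanine. WT cells carried the same knockdown and were reconstituted with wild-type CDK9. EV cells carried the knockdown under the label EV, which the labels do not expand. Each group had 2 libraries, all 3 CDK9 lines share the knockdown, and no line without it was compared with them here. The labels of EPZ and DMSO cells name no knockdown. Whether the lines are single clones, and which promoter drives the returned CDK9, is not given in the sources used here.

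Pro-survival proteins such as MCL1 and BCL-xL (the main product of BCL2L1) hold BAX and BAK1 in check, and BH3-only proteins bind the pro-survival proteins or activate the effectors directly. Freed BAX and BAK1 open pores in the outer mitochondrial membrane, which lets cytochrome c out and starts the caspase cascade. Both the mRNA and the protein of MCL1 turn over quickly, so inhibitors of the transcription kinase CDK9 are known to lower MCL1 in many cell types. Several of these genes make more than one protein by alternative splicing, with opposite actions in the case of MCL1 and BCL2L1.

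Splice junctions that separate pairs of isoforms are shown because the tables hold a value for each transcript. Each line gives the last 15 bases of one exon in lower case and the first 15 bases of the next in capitals, 5′ to 3′ on the transcript strand, from the GENCODE 29 transcripts on GRCh38.
MCL1-202: agacggccttccaagGCATGCTTCGGAAAC
MCL1-201: agacggccttccaagGATGGGTTTGTGGAG
BCL2L1-201: gagaacggcggctggGATACTTTTGTGGAA
BCL2L1-202: cagagctttgaacagGATACTTTTGTGGAA
PMAIP1-202: cgcgggctccagcagAGCTGGAAGTCGAGT
PMAIP1-201: cgcgggctccagcagGACCGGCGGGTACGG
BBC3-202: cctgccagatttgtgGTCCTCAGCCCTCGC
BBC3-201: cctgccagatttgtgAGACAAGAGGAGCAG
MCL1-202 (ENST00000369026, chromosome 1, minus strand) encodes 350 codons, the long anti-apoptotic form. Its junction joins exon 1, which ends at 150578843, to exon 2 of 248 bases at 150578244 to 150578491. MCL1-201 (ENST00000307940) leaves out those 248 bases, joins exon 1 to 150577491 and encodes 271 codons, the short pro-apoptotic form. BCL2L1-201 (ENST00000307677, chromosome 20, minus strand) encodes 233 codons, BCL-xL. BCL2L1-202 (ENST00000376055) ends exon 2 189 bases earlier, at 31721844 rather than 31721655, and encodes 170 codons, the pro-apoptotic BCL-xS. PMAIP1-202 (chromosome 18, plus strand, 54 codons) encodes the BH3-only protein NOXA and joins 59900235 to 59902647, whereas PMAIP1-201 (136 codons) joins 59900235 to an added exon at 59900428. BBC3-202 (chromosome 19, minus strand, 131 codons) joins 47232515 to an exon at 47226564 to 47226754, and BBC3-201 (101 codons) skips that exon and joins 47221918.

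The manipulated gene was examined first. CDK9, which as part of P-TEFb releases paused polymerase, stood at 2611 and 2500 FPKM in K56A, 3060 and 2976 FPKM in WT and 16.4 and 19.5 FPKM in EV, a rise of 7.12 ± 0.07 (SE) in K56A and 7.36 ± 0.07 in WT over EV on the log2 scale (limma, adjusted p = 8.78e-10 and 6.72e-10). In a table normalized separately, CDK9 stood at 41.9 and 38.5 FPKM in EPZ and 43.9 and 37.6 FPKM in DMSO. K56A and WT thus held far more CDK9 mRNA than those cells, and the part of this excess in the results was not tested. FPKM are fragments scaled to transcript length and library size, so levels of different genes can be set side by side. DOT1L also rose over EV, by 1.10 in K56A and 0.78 in WT on the log2 scale (adjusted p = 1.01e-05 and 0.00016). Its levels were 733 and 703 FPKM in K56A, 578 and 568 FPKM in WT and 324 and 343 FPKM in EV, beside 10.7 and 10.3 FPKM in EPZ and 12.6 and 12.5 FPKM in DMSO, in a table normalized separately. K56A stood above WT in DOT1L by 0.32 on the log2 scale (adjusted p = 0.0397), which did not pass in 9 of 16 alternatives. The part of these DOT1L levels in the results for the lines was not tested. Genes of the mitochondrial genome held 17.3% to 19.3% of all FPKM in the inhibitor table, and in the knockdown lines 25.3% and 25.4% in K56A, 27.7% and 27.1% in WT, and 27.9% and 27.5% in EV. Read depth is unknown, since no counts were used, but the steps of low values gave depth ratios of 1.07 to 1.29 against DMSO replicate 1 and of 0.868 to 1.21 against EV replicate 1. DMSO replicate 1 listed 54216 transcripts above 0, against 59403 to 59913 in the other 3 libraries of its table. All 6 epithelial markers (EPCAM, KRT8, KRT18, KRT19, CDH1 and CLDN4) were at 1 FPKM or more in every library, but 0 of 5 leukocyte and 0 of 4 endothelial markers were. Of 5 fibroblast markers 1 was, COL1A1, at 23.1 and 19.8 FPKM in EPZ, 19.3 and 20.1 FPKM in DMSO, 36.2 and 34.5 FPKM in K56A, 34.1 and 33.1 FPKM in WT and 29.9 and 27.4 FPKM in EV, and its part in the results was not tested.

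The members lie on 8 chromosomes of GRCh38, and those not located further on are BCL2L12 (chromosome 19, 49665142 to 49673916), BAK1 (chromosome 6, 33572547 to 33580293), BCL2L11 (chromosome 2, 111120914 to 111168445), BID (chromosome 22, 17734138 to 17774665) and BAD (chromosome 11, 64269830 to 64284704). MCL1 and BCL2L1 were the most abundant members in every group. In the knockdown lines their order was BCL2L1 above MCL1 without overlap of the libraries. In EPZ cells MCL1 stood above BCL2L1, and in DMSO cells the libraries of both genes overlapped. BCL2L11, which encodes the BH3-only protein BIM, was the lowest member in all 5 groups, at 6.27 to 8.02 FPKM. Among all genes tested, the group means of MCL1 lay at the 89.0th to 93.9th percentile of expression and those of BCL2L11 at the 31.4th to 37.9th. PMAIP1, BAX and BCL2L12 held ranks 3 to 6 in each group. Other neighbours in the order of levels that overlapped were BAX and PMAIP1, and BAD and BBC3, in K56A, and BAX and BAD, BAD and PMAIP1, and BID and BAK1 in DMSO. In EPZ the overlapping neighbours were BAD and BAK1, BAK1 and BID, and BID and BBC3, and in WT and EV no neighbours overlapped. BAK1 stood at 21.3 to 25.2 FPKM in the inhibitor table and at 8.21 to 9.44 FPKM in the knockdown lines, and BAD at 24.0 to 38.0 and 12.6 to 15.1 FPKM. These tables were normalized separately and share no library, so the difference between experiments was not tested.

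**Figure D1:**
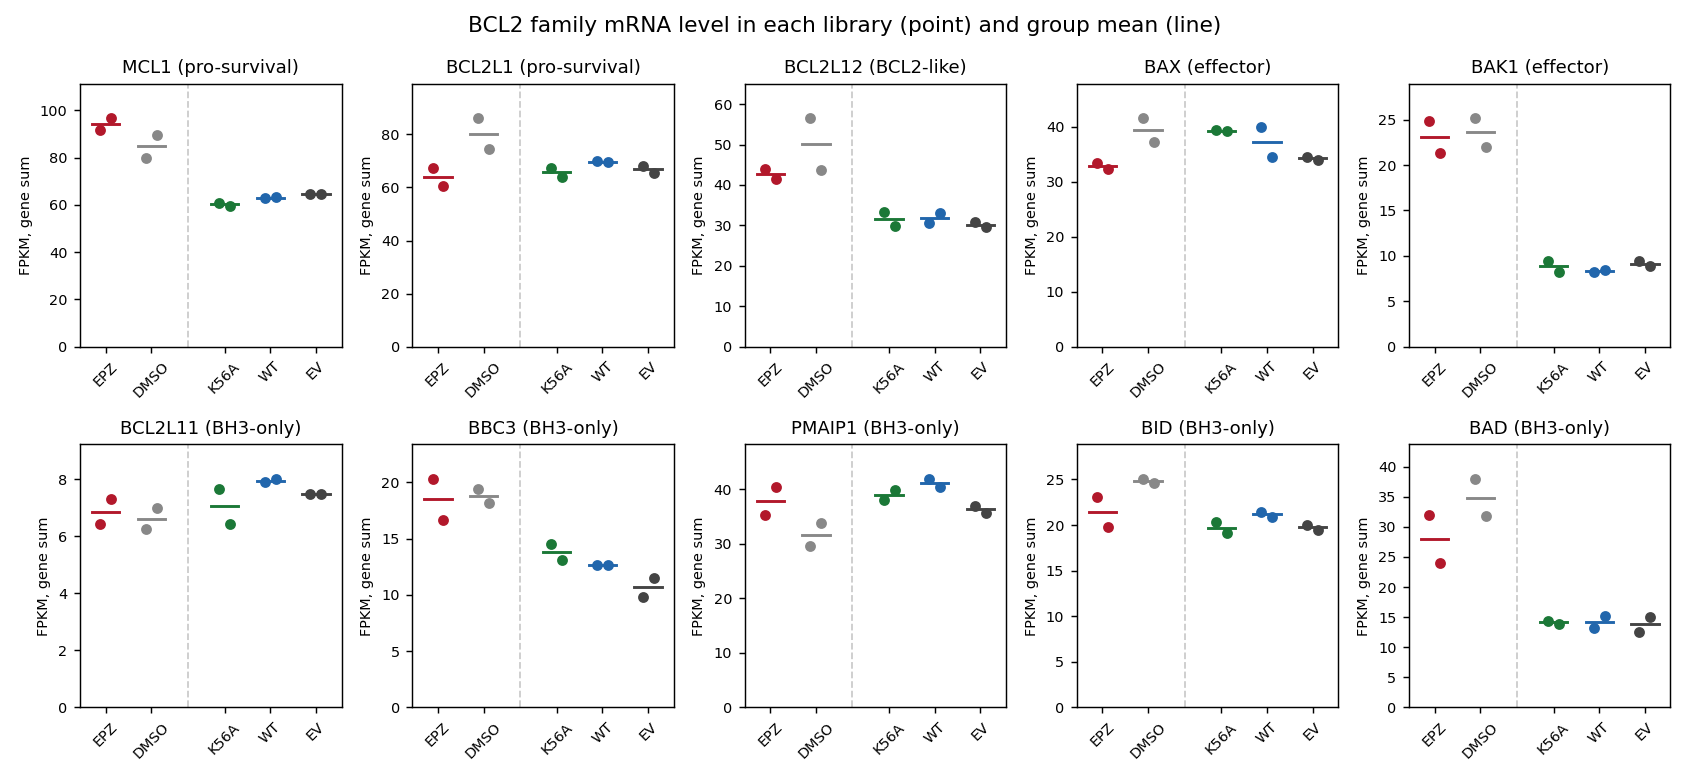
mRNA level of each BCL2 family member (y axis, FPKM summed over the transcripts of the gene) in EPZ, DMSO, K56A, WT and EV cells (x axis), where each point is 1 library and each line a group mean of 2 libraries. MCL1 was at 91.5 and 96.8 FPKM in EPZ against 79.7 and 89.7 FPKM in DMSO, while the 6 libraries of the knockdown lines lay between 59.5 and 64.6 FPKM.

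The first comparison asked whether 72 h of DOT1L inhibition changed the BCL2 family. None of the 10 members passed limma with Benjamini-Hochberg adjustment at 0.05, where 0.00762% of 13130 genes tested did. Among the members, 1 had an unadjusted p under 0.05 (BCL2L1), against 5.83% of all genes. The 2 EPZ libraries stood above both DMSO libraries for 2 members and below them for 3. Of all genes, 37.4% had such groups without overlap (18.6% higher and 18.8% lower in EPZ). The median log2 fold change of the members was -0.12, with 3 above 0 and 7 below, beside 0.00 for all genes tested. The labels do not say whether libraries came from separate cultures, so the spread behind every p-value may be technical. In bulk libraries a change in the share of cells that express a gene and a change per cell cannot be told apart.

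MCL1 (ENSG00000143384, chromosome 1, 150563102 to 150579738), which sequesters BAK1 and BIM, had 91.5 and 96.8 FPKM in EPZ and 79.7 and 89.7 FPKM in DMSO. The groups did not overlap, but the nearest libraries were closer to each other than the DMSO libraries were. The log2 fold change was 0.15 ± 0.11 (SE, n = 2 each, adjusted p = 0.761, 95% interval -0.11 to 0.42), and 0.05 when only protein-coding transcripts were summed. BCL2L1 (ENSG00000171552, chromosome 20, 31664452 to 31723989) had 67.3 and 60.5 FPKM in EPZ and 86.2 and 74.5 FPKM in DMSO. Both EPZ libraries were lower, with a log2 fold change of -0.33 ± 0.12 (unadjusted p = 0.0309, adjusted p = 0.756) at the 5.38th percentile of all fold changes. Without DMSO replicate 1, which stood apart above, it became -0.22 (adjusted p = 1.00), and without DMSO replicate 2 it became -0.43 (adjusted p = 0.0338). The ratio of MCL1 to BCL2L1 was 1.36 and 1.6 in EPZ and 0.924 and 1.21 in DMSO, so the ratio was higher in both EPZ libraries. BCL2L12, a BCL2-like protein, had 44.0 and 41.5 FPKM in EPZ and 56.6 and 43.7 FPKM in DMSO, a difference carried by DMSO replicate 1 (-0.22 ± 0.15, and -0.03 without that library).

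Neither effector passed. BAX (ENSG00000087088, chromosome 19, 48954815 to 48961798), which moves from the cytosol to mitochondria to form pores, had 33.3 and 32.3 FPKM in EPZ and 41.6 and 37.2 FPKM in DMSO. Both EPZ libraries were lower, but the log2 fold change of -0.26 ± 0.12 did not pass (adjusted p = 0.756). BAK1, which resides in the mitochondrial membrane, had 24.8 and 21.3 FPKM in EPZ and 25.2 and 22.0 FPKM in DMSO, and its groups overlapped (-0.03 ± 0.14).

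Among the BH3-only genes, PMAIP1 (ENSG00000141682, chromosome 18, 59899996 to 59904305), whose product NOXA binds MCL1 and promotes its degradation, had 35.2 and 40.5 FPKM in EPZ and 29.7 and 33.8 FPKM in DMSO. Both EPZ libraries were higher, with a log2 fold change of 0.25 ± 0.13 (adjusted p = 0.756, 95% interval -0.06 to 0.56). BID, which is cleaved by caspase 8 to reach mitochondria, had 23.1 and 19.8 FPKM in EPZ and 25.1 and 24.7 FPKM in DMSO (-0.21 ± 0.13), again without overlap. BAD, which binds BCL-xL when unphosphorylated, had 32.0 and 24.0 FPKM in EPZ and 38.0 and 31.7 FPKM in DMSO, and its groups overlapped (-0.32 ± 0.17, adjusted p = 0.756). The BAD value moved with each library left out, to -0.53 without EPZ replicate 1, -0.12 without EPZ replicate 2, -0.19 without DMSO replicate 1 and -0.45 without DMSO replicate 2, and the last alone passed (adjusted p = 0.0413). BBC3, which encodes the p53 target PUMA, had 20.3 and 16.6 FPKM in EPZ and 19.4 and 18.2 FPKM in DMSO, with EPZ on both sides of DMSO. BCL2L11 had 6.43 and 7.30 FPKM in EPZ and 6.27 and 6.98 FPKM in DMSO, and its groups overlapped. The log2 fold changes of BBC3 (-0.03 ± 0.14) and BCL2L11 (0.05 ± 0.16), like that of BAK1, changed sign with the GC and length trend removed (0.12 for BBC3, -0.01 for BCL2L11 and 0.06 for BAK1).

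The second experiment expressed wild-type CDK9 or the K56A mutant in CDK9 knockdown cells and asked what each did to expression. CDK9 mRNA in both lines stood far above that of EV cells and also above that of EPZ and DMSO cells. No member passed in K56A versus EV, WT versus EV or K56A versus WT, where 0.729%, 0.513% and 0.058% of 12077 genes tested did. An unadjusted p under 0.05 was found for 3 members in K56A versus EV (BBC3, BAX and MCL1), 2 in WT versus EV (PMAIP1 and BBC3) and 0 in K56A versus WT, where 15%, 13.4% and 12.8% of all genes had one. Libraries did not overlap for 4 members in K56A versus EV (3 higher, 1 lower), against 45.4% of all genes (27.4% higher, 18% lower). In WT versus EV they did not overlap for 8 members (6 higher, 2 lower), against 43.4% (22.4% higher, 21% lower). In K56A versus WT they did not overlap for 6 members (1 higher, 5 lower), against 45.4% (25.9% higher, 19.5% lower). The median log2 fold change of the members was 0.02 in K56A versus EV, 0.08 in WT versus EV and -0.04 in K56A versus WT, beside 0.02, 0.01 and 0.01 for all genes. K56A versus EV and WT versus EV share the EV libraries, and all 3 comparisons share libraries in pairs.

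MCL1 had 60.9 and 59.5 FPKM in K56A, 63.0 and 63.2 FPKM in WT and 64.6 and 64.5 FPKM in EV. In this sum over all transcripts the 3 lines did not overlap, K56A being lowest and EV highest. Most of the gap between K56A and WT (means of 60.2 and 63.1 FPKM) lay in MCL1-206 (means of 13.7 and 16.4 FPKM), annotated as a retained intron transcript. It had 12.9 and 14.4 FPKM in K56A, 15.95 and 16.85 FPKM in WT and 15.8 and 14.8 FPKM in EV. Over 16 alternatives the MCL1 log2 fold change of K56A versus WT ran from -0.083 to -0.019. The log2 fold change was -0.10 ± 0.04 for K56A versus EV (unadjusted p = 0.0422, adjusted p = 0.316, 95% interval -0.195 to -0.004), -0.03 ± 0.04 for WT versus EV (adjusted p = 0.787) and -0.07 ± 0.04 for K56A versus WT (adjusted p = 0.558). Over the 17 alternatives the K56A versus EV value stayed between -0.14 and -0.08, with adjusted p of 0.248 to 0.624. The mitochondrial share of FPKM was also lowest in K56A, and with libraries scaled to the same sum over nuclear genes the K56A versus EV value was -0.12.

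BCL2L1 had 67.35 and 64.0 FPKM in K56A, 69.8 and 69.6 FPKM in WT and 68.2 and 65.6 FPKM in EV. WT was highest in both libraries, and K56A overlapped EV. The log2 fold changes were -0.03 ± 0.05 for K56A versus EV, 0.06 ± 0.05 for WT versus EV and -0.09 ± 0.05 for K56A versus WT (adjusted p = 0.843, 0.637 and 0.487). The ratio of MCL1 to BCL2L1 was 0.904 and 0.930 in K56A, 0.902 and 0.909 in WT and 0.948 and 0.984 in EV. BCL2L12 had 33.4 and 29.9 FPKM in K56A, 30.7 and 33.0 FPKM in WT and 30.8 and 29.6 FPKM in EV, and all 3 lines overlapped.

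BAX had 39.3 and 39.2 FPKM in K56A, 39.9 and 34.5 FPKM in WT and 34.5 and 33.98 FPKM in EV. Both K56A libraries stood above both EV libraries, and the WT libraries spanned the gap between them. The log2 fold change was 0.20 ± 0.07 for K56A versus EV (unadjusted p = 0.0234, adjusted p = 0.261) and 0.12 ± 0.07 for WT versus EV (adjusted p = 0.535). BAK1 had 9.44 and 8.27 FPKM in K56A, 8.21 and 8.39 FPKM in WT and 9.44 and 8.87 FPKM in EV. WT lay below EV without overlap (-0.13 ± 0.09, adjusted p = 0.572), and K56A overlapped both.

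BBC3 (ENSG00000105327, chromosome 19, 47220822 to 47232766) had the largest fold change of the members in both comparisons with EV. It had 14.5 and 13.1 FPKM in K56A, 12.65 and 12.6 FPKM in WT and 9.85 and 11.5 FPKM in EV. In this sum over all transcripts the lines did not overlap and K56A was highest. The log2 fold change was 0.36 ± 0.09 for K56A versus EV (unadjusted p = 0.00405, adjusted p = 0.138) and 0.24 ± 0.09 for WT versus EV (unadjusted p = 0.0314, adjusted p = 0.315), at the 97.5th and 94.5th percentile of all genes. The K56A versus EV value was 0.18 with protein-coding transcripts only (adjusted p = 0.605), and 0.0875 was the lowest adjusted p over its 17 alternatives. K56A versus WT gave 0.12 ± 0.09 (adjusted p = 0.633). Retained intron transcripts held 41.1% and 45.2% of the BBC3 sum in K56A, 48.5% and 32.7% in WT and 30.6% and 39.7% in EV.

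PMAIP1 had 38.1 and 40.0 FPKM in K56A, 42.0 and 40.5 FPKM in WT and 37.0 and 35.8 FPKM in EV. The 3 lines did not overlap, with WT highest and EV lowest. The log2 fold change was 0.10 ± 0.05 for K56A versus EV (adjusted p = 0.408), 0.18 ± 0.05 for WT versus EV (unadjusted p = 0.00846, adjusted p = 0.195) and -0.08 ± 0.05 for K56A versus WT (adjusted p = 0.584). BID had 20.4 and 19.1 FPKM in K56A, 21.4 and 20.9 FPKM in WT and 20.0 and 19.5 FPKM in EV. WT stood above both other lines, by 0.10 ± 0.06 over EV (adjusted p = 0.545), and K56A overlapped EV. BAD had 14.35 and 13.9 FPKM in K56A, 13.2 and 15.1 FPKM in WT and 12.6 and 15.05 FPKM in EV, and all 3 lines overlapped. BCL2L11 had 7.66 and 6.43 FPKM in K56A, 7.89 and 8.02 FPKM in WT and 7.48 FPKM in both EV libraries. WT was highest, but K56A versus WT was -0.17 ± 0.10 (adjusted p = 0.519), and 4.65% of the FPKM of BCL2L11 lay in transcripts listed in only 1 knockdown table and so outside these sums.

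**Figure D2:**
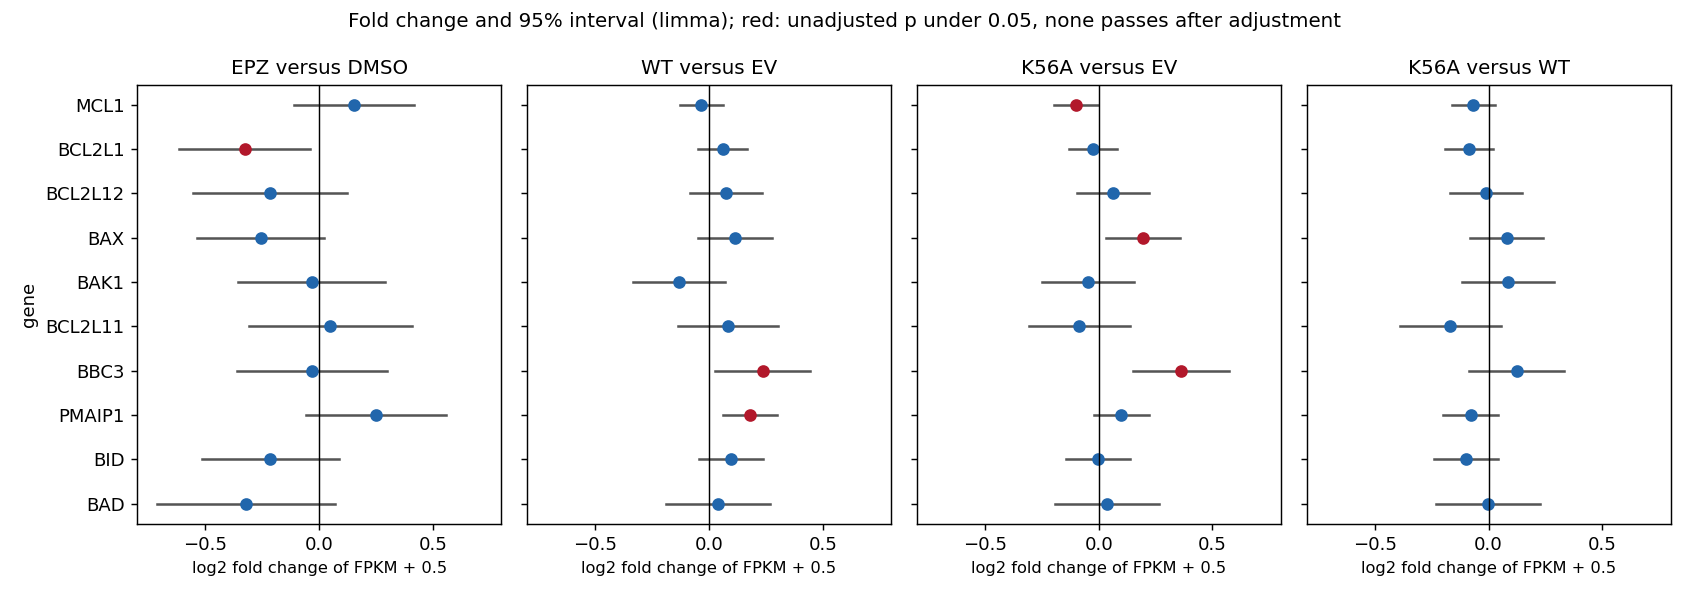
log2 fold change of FPKM + 0.5 (x axis, point) with its 95% interval from limma (line) for the 10 members (y axis) in the 4 comparisons. The intervals that leave out 0 are those of BCL2L1 with EPZ, of BBC3, BAX and MCL1 in K56A versus EV, and of PMAIP1 and BBC3 in WT versus EV, and no member passed after adjustment.

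**Figure D3:**
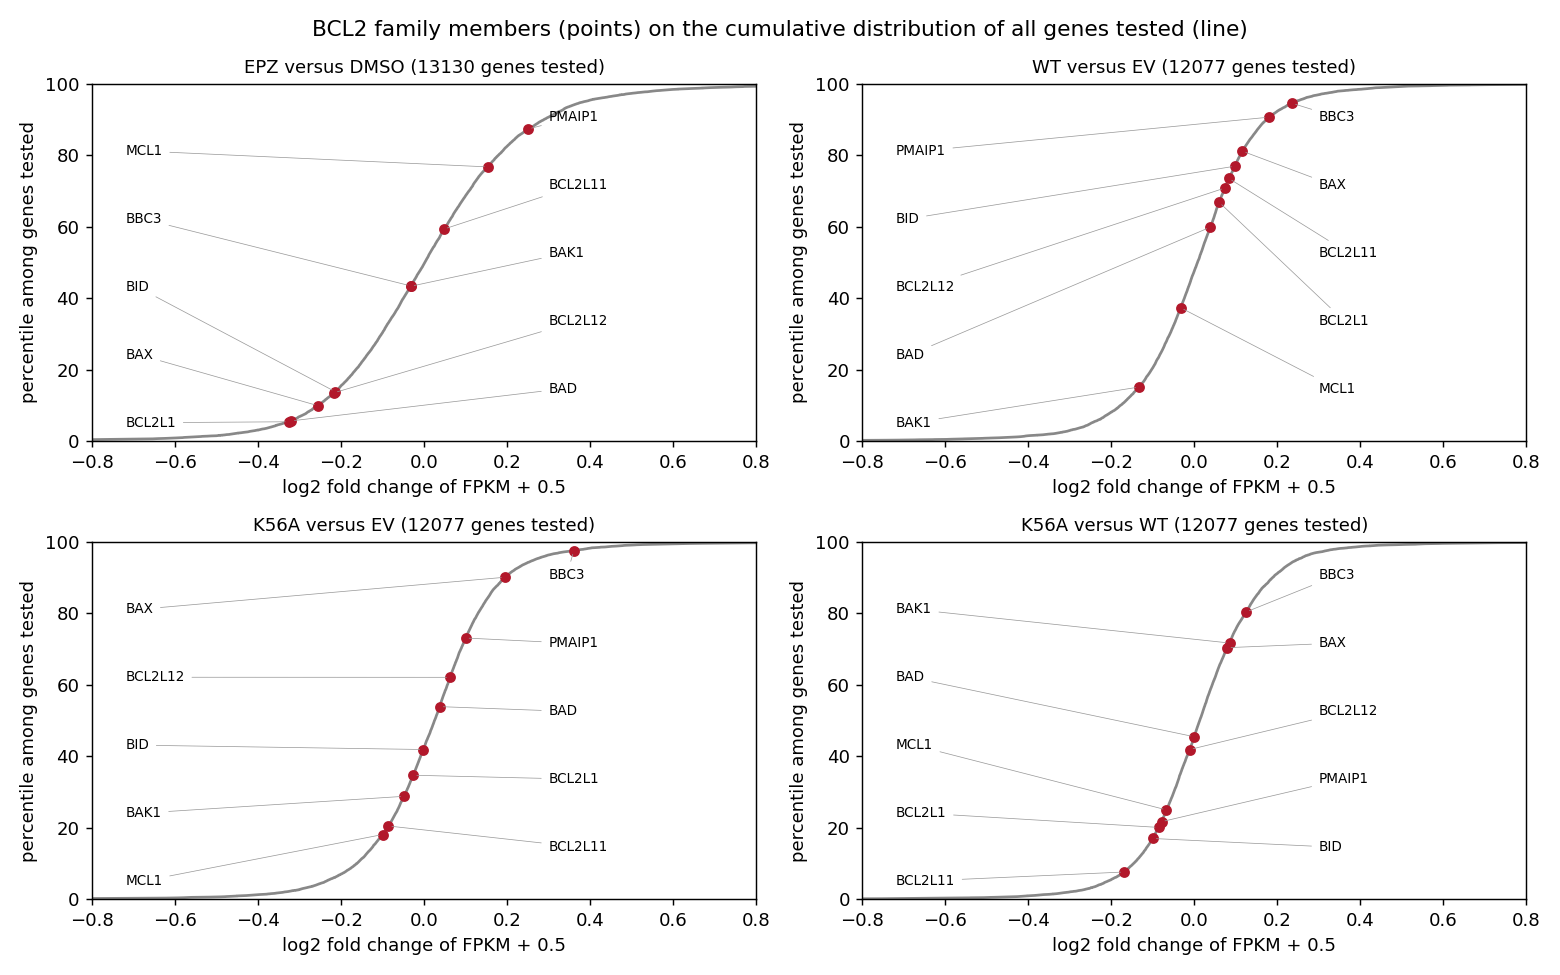
Each member (point) on the cumulative distribution of log2 fold changes of all genes tested (line), with the fold change on the x axis and the percentile on the y axis. BBC3 at the 97.5th percentile in K56A versus EV and BCL2L1 at the 5.38th percentile with EPZ are the members nearest the ends.

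At the level of transcripts, MCL1-202, the long form, made up most of the protein-coding MCL1 signal. It had 51.0 and 58.3 FPKM in EPZ and 44.4 and 56.6 FPKM in DMSO, and 32.3 and 30.4 FPKM in K56A, 32.4 and 32.7 FPKM in WT and 35.2 and 34.8 FPKM in EV. The EPZ and DMSO libraries overlapped, and both returned lines stood below EV. In the authors' deposited table, MCL1-202 was lower in K56A than in EV, with a log2 fold change of -0.20 and an adjusted p of 0.00716. The short form MCL1-201, which carries the other junction printed above, reached only 1.55 and 1.67 FPKM in EPZ, 0.703 and 2.67 FPKM in DMSO, 3.76 and 1.5 FPKM in K56A, 1.82 and 1.79 FPKM in WT and 1.34 and 2.78 FPKM in EV. These groups overlapped, and in each of the 10 libraries the long form exceeded the short form.

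The rest of the MCL1 sum came largely from MCL1-203 and MCL1-206, which are annotated as retained intron transcripts. Together they held 32.3% and 34.5% of the MCL1 sum in EPZ, 23.2% and 33.1% in DMSO, 39.4% and 44.2% in K56A, 43.3% and 44.2% in WT and 41.2% and 39.3% in EV. MCL1-208 had 6.36 and 0 FPKM in EPZ and 14.6 and 0 FPKM in DMSO and was not listed in either knockdown table. Transcript values are estimates that divide shared reads among isoforms, so a value that appears in 1 replicate and is 0 in the other says little about the group.

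For BCL2L1, the BCL-xL transcript BCL2L1-201 led in all libraries. It had 38.0 and 31.3 FPKM in EPZ and 42.1 and 36.5 FPKM in DMSO, and 26.1 and 24.5 FPKM in K56A, 24.2 and 25.6 FPKM in WT and 24.6 and 24.5 FPKM in EV. That was 51.7% to 56.5% of the gene sum in EPZ, 48.8% to 49.1% in DMSO and 34.6% to 38.6% in the knockdown lines. The lower BCL2L1 sum in EPZ did not lie in BCL2L1-201 alone. BCL2L1-210 had 7.80 and 2.29 FPKM in EPZ and 11.9 and 10.6 FPKM in DMSO. BCL2L1-205 went the other way, at 4.07 and 6.31 FPKM in EPZ and 2.2 and 3.58 FPKM in DMSO. BCL2L1-202, the BCL-xS form, had 0.327 and 0 FPKM in EPZ, 0 and 0.616 FPKM in DMSO, 0 and 1.09 FPKM in K56A and 0 and 0.268 FPKM in EV, and it was not listed in the WT table. BCL2L1-203, another transcript of 233 codons, had 7.33 and 7.29 FPKM in WT and 9.49 and 12.5 FPKM in EV, and in the authors' deposited table it was lower in WT with an adjusted p of 0.0498.

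**Figure D4:**
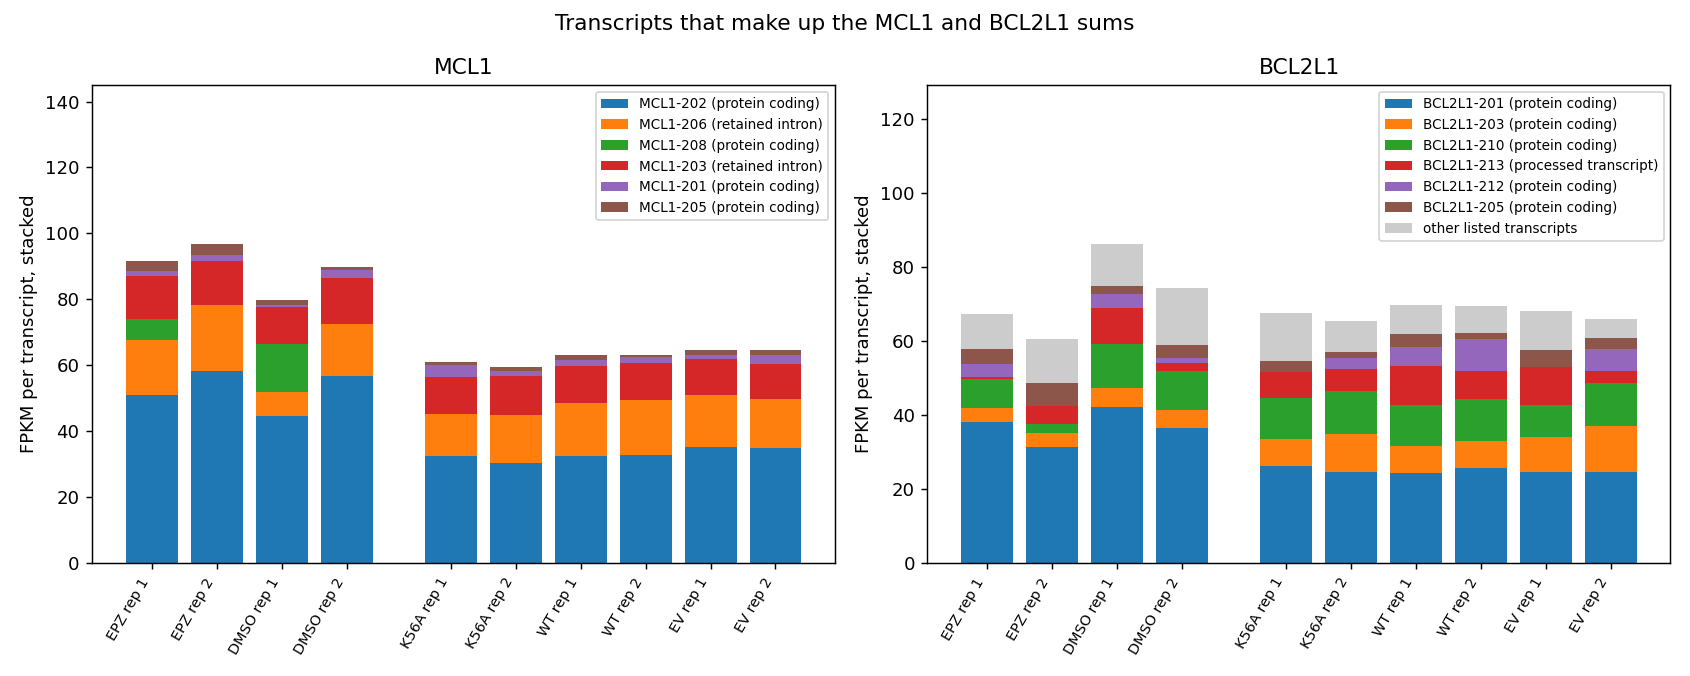
FPKM per transcript (y axis, stacked) in each of the 10 libraries (x axis) for MCL1 and BCL2L1, with the transcript type in brackets. MCL1-202 stood at 44.4 to 58.3 FPKM in EPZ and DMSO and at 30.4 to 35.2 FPKM in the knockdown lines, and the green MCL1-208 segment is seen in EPZ replicate 1 and DMSO replicate 1 only.

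Isoform use also varied for other members. The NOXA transcript PMAIP1-202 had 22.0 and 22.1 FPKM in EPZ and 21.7 and 20.2 FPKM in DMSO, and 16.8 and 18.1 FPKM in K56A, 17.0 and 18.7 FPKM in WT and 14.9 and 15.2 FPKM in EV. It was higher in both returned lines than in EV without overlap, while PMAIP1-201 had 16.0 and 17.8 FPKM in K56A, 19.7 and 17.0 FPKM in WT and 18.1 and 16.6 FPKM in EV, with overlap. In DMSO, PMAIP1-201 differed between libraries, at 2.18 and 11.2 FPKM, against 10.3 and 15.5 FPKM in EPZ. The higher PMAIP1 sum in EPZ lay mainly in PMAIP1-201 (means of 12.9 FPKM in EPZ and 6.67 FPKM in DMSO). The means of the NOXA transcript PMAIP1-202 were 22.1 and 20.9 FPKM. BBC3-202 had 13 and 9.16 FPKM in EPZ and 14.3 and 10.8 FPKM in DMSO, and 3.77 and 2.78 FPKM in K56A, 1.69 and 5.73 FPKM in WT and 6.33 and 3.45 FPKM in EV. BBC3-201, which skips an exon, had 1.31 and 1.99 FPKM in EPZ and was listed at 0 in both DMSO libraries, and it had 3.06 and 3.33 FPKM in K56A, 3.996 and 1.48 FPKM in WT and 0 and 2.53 FPKM in EV. BBC3-202 therefore varied more, in proportion, between the replicates of each line than the gene sum did. BBC3-203, a transcript of 193 codons, had 1.16 and 1.33 FPKM in EPZ and 0.845 and 2.13 FPKM in DMSO. It had 1.09 and 0.371 FPKM in K56A, 0.329 and 0.372 FPKM in WT and 0.242 and 0.0871 FPKM in EV.

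Retained intron transcripts held a large part of the BAX sum, 40.6% and 38.8% in EPZ and 33.3% and 35.8% in DMSO. In the knockdown lines the BAX share was 55.7% and 50.2% in K56A, 52.4% and 56.2% in WT and 56.7% and 52.5% in EV. BAX-211, a retained intron transcript, had 6.37 and 6.98 FPKM in K56A, 4.107 and 5.975 FPKM in WT and 2.96 and 3.29 FPKM in EV. Both returned lines stood above EV without overlap. In the authors' deposited table it was higher in K56A with a log2 fold change of 1.06 and an adjusted p of 0.00533. In WT versus EV their log2 fold change was 0.67 with an adjusted p of 0.695. BAX-202, which encodes the 192 codons of the main BAX protein, had 10.4 and 9.24 FPKM in EPZ and 19.3 and 12.2 FPKM in DMSO, without overlap. It had 3.86 and 3.35 FPKM in K56A, 2.84 and 2.76 FPKM in WT and 2.21 and 3.10 FPKM in EV. BAK1, BID and BCL2L11 had almost no retained intron signal, at most 4.61% of a gene sum (BID in WT replicate 1).

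In the authors' deposited tables, 3 of 56 member transcripts had an adjusted p under 0.05 with EPZ, 3 of 60 in K56A versus EV and 1 of 56 in WT versus EV, where 1.19%, 3.8% and 3.33% of all transcripts did. The 3 with EPZ in the authors' deposited table were BBC3-201, BCL2L11-221 and BCL2L11-222, and each was listed at 0 in both DMSO libraries and below 2 FPKM in EPZ. A group at 0 was common among the authors' calls, at 651 of 752 with EPZ and 1248 of 2841 in K56A versus EV. In the authors' deposited table for K56A, the calls were MCL1-202, BAX-211 and BCL2L11-219, the last listed at 0 in both EV libraries and at 0.187 and 0.334 FPKM in K56A.

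Genes that work with the BCL2 family were read from the same fits. Among other BCL2 family genes, 0 of 8 tested passed with EPZ and 0 of 6 in each comparison of the knockdown lines. The lowest p was that of BIK, a BH3-only gene of the endoplasmic reticulum, at 7.54 and 6.71 FPKM in K56A and 5.45 and 6.29 FPKM in EV (0.26 ± 0.11, unadjusted p = 0.0384, adjusted p = 0.307). The next list held genes that act downstream of mitochondria and also CASP8, whose product cleaves BID. Of these, 0 of 13 passed with EPZ, 0 of 12 in WT versus EV and in K56A versus WT, and 1 of 12, which fell, in K56A versus EV. That gene was AIFM1, a flavoprotein of the mitochondrial intermembrane space. Its WT level of 25.6 and 27.1 FPKM also lay below EV without overlap but did not pass (-0.24 ± 0.06, unadjusted p = 0.00265, adjusted p = 0.121). In K56A it had 23.5 and 24.4 FPKM, against 31.1 and 31.2 FPKM in EV (-0.37 ± 0.06, adjusted p = 0.0316). The fall of AIFM1 did not pass in 10 of 17 alternatives, where adjusted p ran from 0.0137 to 0.888 over all 17, and it was -0.07 with protein-coding transcripts only. BIRC3, which encodes the inhibitor of apoptosis protein cIAP2, had 7.71 and 6.003 FPKM in K56A, 6.78 and 6.33 FPKM in WT and 5.01 and 5.19 FPKM in EV. Both returned lines stood above EV in BIRC3 without overlap, but neither difference passed (0.38 ± 0.12 for K56A, unadjusted p = 0.0127, adjusted p = 0.208, and 0.33 ± 0.12 for WT, unadjusted p = 0.0245, adjusted p = 0.281). CYCS, cytochrome c itself, had 60.2 and 55.1 FPKM in K56A, 66.2 and 63.5 FPKM in WT and 63.1 FPKM in both EV libraries. K56A lay below both other lines without overlap, but neither difference passed. The log2 fold change was -0.17 ± 0.05 against WT (unadjusted p = 0.0132, adjusted p = 0.261) and -0.13 ± 0.05 against EV (adjusted p = 0.312).

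Of the 7 genes that control turnover of the MCL1 protein, 0 passed in any of the 4 comparisons. HUWE1, a ubiquitin ligase of MCL1, had 87.3 and 83.3 FPKM in K56A, 83.2 and 84.0 FPKM in WT and 76.4 and 75.9 FPKM in EV. Both returned lines stood above EV, by 0.16 ± 0.04 in K56A (unadjusted p = 0.00484, adjusted p = 0.146) and 0.13 ± 0.04 in WT (unadjusted p = 0.0130, adjusted p = 0.225). FBXW7, the substrate receptor of another MCL1 ligase, had 10.6 and 10.4 FPKM in K56A and 7.69 and 9.40 FPKM in EV (0.29 ± 0.10, adjusted p = 0.249). Among transcription factors of BH3-only genes, 0 of 7 tested passed with EPZ and 0 of 5 in each comparison of the lines. DDIT3, the stress factor CHOP, had 18.1 and 19.5 FPKM in K56A, 16.2 and 18.1 FPKM in WT and 16.4 and 14.1 FPKM in EV (0.29 ± 0.09 for K56A versus EV, unadjusted p = 0.0119, adjusted p = 0.205).

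The genes whose levels followed MCL1 most closely over the 6 knockdown libraries were MT-ND2, JUN, LASP1, KDELR3 and FAM3C, with Pearson r of 0.987 to 0.992 as a description of log2(FPKM + 0.5). JUN had 47.9 and 44.3 FPKM in K56A, 53.3 and 54.0 FPKM in WT and 57.4 and 59.8 FPKM in EV. Its order of lines was that of the MCL1 sum over all transcripts. MT-ND2, a complex I subunit of the mitochondrial genome, had 8065 and 7873 FPKM in K56A, 8899 and 8907 FPKM in WT and 9454 and 9397 FPKM in EV. An r of 0.95 or more with MCL1 was found for 47 of 12076 genes, and these values share the library and its scaling.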

How the data were processed

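The authors deposited 3 tables of FPKM per transcript, each with 4 libraries. The submitters' processing notes name DESeq2 1.32.0, RSEM 1.3.3, STAR 2.7.1a and Trim Galore 0.6.6 as tools and GRCh38 as the build. The sources used here give neither the annotation release nor the strand setting, so reads of a gene and of one overlapping it in antisense are not separable. Each table also holds the authors' log2 fold change, p-value and adjusted p-value per transcript, made with edgeR (inhibitor) or DESeq2 (knockdown), per the file headers. Another 4 columns were not used.

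FPKM were summed per gene. The EV libraries stand in both knockdown tables and differ by a constant factor, so K56A values were multiplied by 1.00066. Only the 69086 transcripts in both tables were summed. Left out were 2261 genes with over 5% of FPKM in transcripts of 1 table, a limit that came from earlier results of these data.

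The test was limma 3.58.1 in R 4.3.3 on log2(FPKM + 0.5), with an intensity trend, two-sided p-values and Benjamini-Hochberg adjustment over all genes. A gene entered if 2 or more libraries had an FPKM of 1 or more. One fit held the 4 inhibitor libraries and another the 6 knockdown libraries. Fold changes on this scale understate those of low genes. The fit was tested on simulated data, and transcript values got no test. Other software was matplotlib 3.10.9, numpy 2.4.6, pandas 2.3.3 and Python 3.11.15. Of 63 member transcripts, 55 were in GENCODE 29, whose transcript ends differ slightly from the deposited ones.

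Alternatives covered the pseudocount, the filter, scaling, the trend, a replicate block, GC and length, transcript type, the table used and leaving out each library. Members and lists were chosen with earlier results of these data known. All 10 members are given, up to 4 genes of each other list by smallest p over the comparisons, and the 5 genes most like MCL1.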

Additional observations from a re-analysis of the deposited data

How the results depend on the processing

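No member of the family passed in any of the alternatives, with 1 exception: without DMSO replicate 2, BCL2L1 (-0.43) and BAD (-0.45) passed with EPZ, which makes 2 members, against 0 to 2 over the fits that leave out 1 library. Over 640 checks of 40 member values, 610 kept direction and side of the threshold, 28 changed sign and 2 came to pass. Of these 28, 6 did not come from leaving out a library. Signs changed with the GC and length trend removed for BCL2L11 (-0.013), BAK1 (0.064) and BBC3 (0.12) with EPZ and for BAD in K56A versus EV (-0.062). They changed with protein-coding transcripts only for BCL2L1 in WT versus EV (-0.0051), and within the single deposited table for BCL2L11 in K56A versus EV (0.027). Outside the 640 checks, CDK9 with EPZ changed sign with the GC and length trend removed (0.042). With protein-coding transcripts only, AIFM1 changed sign with EPZ (0.27) and in K56A versus WT (0.20). Leaving out 1 library gave ranges across 0 with EPZ for BCL2L11 (-0.037 to 0.13), BAK1 (-0.14 to 0.075), BBC3 (-0.17 to 0.11) and CDK9 (-0.13 to 0.095). The same held in K56A versus EV for BCL2L1 (-0.062 to 0.011), BCL2L11 (-0.20 to 0.031), BCL2L12 (-0.016 to 0.14), BAK1 (-0.14 to 0.042), BID (-0.048 to 0.043) and BAD (-0.086 to 0.16). It held in K56A versus WT for BCL2L12 (-0.090 to 0.067), BAX (-0.025 to 0.18), BAK1 (-0.0058 to 0.18) and BAD (-0.094 to 0.093), and in WT versus EV for BAD (-0.086 to 0.16). The cause was not tested. DOT1L in WT versus EV did not pass without a trend (adjusted p = 0.177). The number of genes called with EPZ (1) became 0 with a pseudocount of 0.1, no filter, a filter at FPKM 5, no trend or GC and length removed, 3 with protein-coding transcripts only, and 34 to 1560 with 1 library left out (1560 without DMSO replicate 2). In WT versus EV (62) it was 40 without a filter, 149 at FPKM 5, 1 without a trend, 38 with protein-coding transcripts, 10 within the single table and 2 to 11 with 1 library left out. In K56A versus EV (88) it was 53, 176, 4, 40 and 22 under the same settings, 141 with GC and length removed and 6 to 38 with 1 library left out. In K56A versus WT (7) it was 1 without a filter, 23 at FPKM 5, 15 with nuclear sum scaling, 0 without a trend, 1 with protein-coding transcripts and 1 to 19 with 1 library left out. A lone library of a group was assumed to vary like the others.

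Replicate numbers do not establish a pairing with 2 pairs, and same-numbered deviations correlated across genes at 0.24 with EPZ, 0.04 in WT versus EV, -0.01 in K56A versus EV and -0.03 in K56A versus WT. With the replicate number as a block, 2, 26, 50 and 3 genes were called, and 0 members in each comparison. Without counts, depth limits low members such as BCL2L11 most.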
